A study of Homo sapiens with 8 samples.

Results

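Intermittent regions are places in the genome of SCC9 cells where a CHD4 peak was called both without and with DOC1, but not in every library of either condition. All peaks of the 6 deposited CHD4 lists were joined where they shared 1 bp or more, which gave 18808 merged regions on hg19, and a library counted as present where it had a peak. The intermittent regions are the 3274 that were present in 1 or 2 of the 3 lacZ libraries and in 1 or 2 of the 3 DOC1 libraries. They made up 17.4% of all merged regions and 62.6% of the 5230 regions seen in both conditions, which are 27.8% of all. They were chosen by the presence or absence of peaks in the 6 lists, so their libraries and peak strength are described with no test.

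SCC9 is an established cell line from a squamous carcinoma of the tongue. Binding of CHD4 was profiled by ChIP-seq, in which protein-bound DNA is crosslinked, pulled down with an antibody and sequenced. The series has 8 samples: 3 anti-CHD4 libraries and 1 IgG library of cells labelled lacZ and -DOC1, and the same of cells labelled DOC1 and +DOC1. All cells were SCC9, grown in serum with hydrocortisone and fixed with formaldehyde. The labels do not say how DOC1 was supplied, whether either line is a single clone, or whether the numbered libraries are separate cultures. The p-values therefore rest on the spread between these libraries alone, which may be technical. Peak lists hold no expression, so the cell type was not checked against markers.

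CHD4 is the ATP-driven motor of NuRD, the nucleosome remodelling and deacetylase complex. It joins nucleosome remodelling to the removal of acetyl groups from histones by HDAC1 and HDAC2, and is known for restraining enhancers and promoters. DOC1, the product of CDK2AP1, is a small subunit of NuRD that is often lost in oral cancers. CHD4 is a remodeller that is not known to read a specific DNA sequence and reaches its sites with partner proteins. A peak caller lists a site only where its reads pass a threshold over the local background, so a weakly bound site can be listed in some libraries and not in others.

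Most intermittent regions rested on the same few libraries. DOC1 3 held a peak in 2864 of them (87.5%), lacZ 1 in 2683 (81.9%), DOC1 1 in 1791 (54.7%) and lacZ 3 in 1373 (41.9%). The libraries with the shortest lists held the fewest, with 488 (14.9%) in lacZ 2 and 119 (3.63%) in DOC1 2. Of all 18808 merged regions, DOC1 3 was present in 10859, lacZ 1 in 6901, DOC1 1 in 7587 and lacZ 3 in 4554. In the same count lacZ 2 was present in 2731 and DOC1 2 in 3416. At least 1 of lacZ 1 and DOC1 3 was present in 3161 regions (96.5%), and both were in 2386 (72.9%). Only 113 regions (3.45%) were seen without either. The lists held 7027, 2812 and 4723 peaks in lacZ 1, lacZ 2 and lacZ 3, and 7834, 3448 and 11032 in DOC1 1, DOC1 2 and DOC1 3. DOC1 3, lacZ 1 and DOC1 1 led both by peaks and by intermittent regions, and lacZ 2 and DOC1 2 came last in both. Within these groups the order differed. DOC1 1 had more peaks than lacZ 1 but fewer intermittent regions, and DOC1 2 had more peaks than lacZ 2 but fewer intermittent regions. Of the regions of a list, 3.48% were intermittent in DOC1 2 and 17.9% in lacZ 2. The part of list length in membership was not tested.

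Of the 36 combinations of libraries that the rule allows, 32 occurred. The pair of lacZ 1 and DOC1 3 alone gave 663 regions (20.3%). Adding DOC1 1 to this pair gave 590 (18.0%), and adding DOC1 1 and lacZ 3 gave 435 (13.3%). These 3 combinations together hold 1688 regions (51.6%), as the plot of library combinations shows. No combination with DOC1 2 reached more than 34 regions, the number for lacZ 1, DOC1 2 and DOC1 3.

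**Figure D1:**
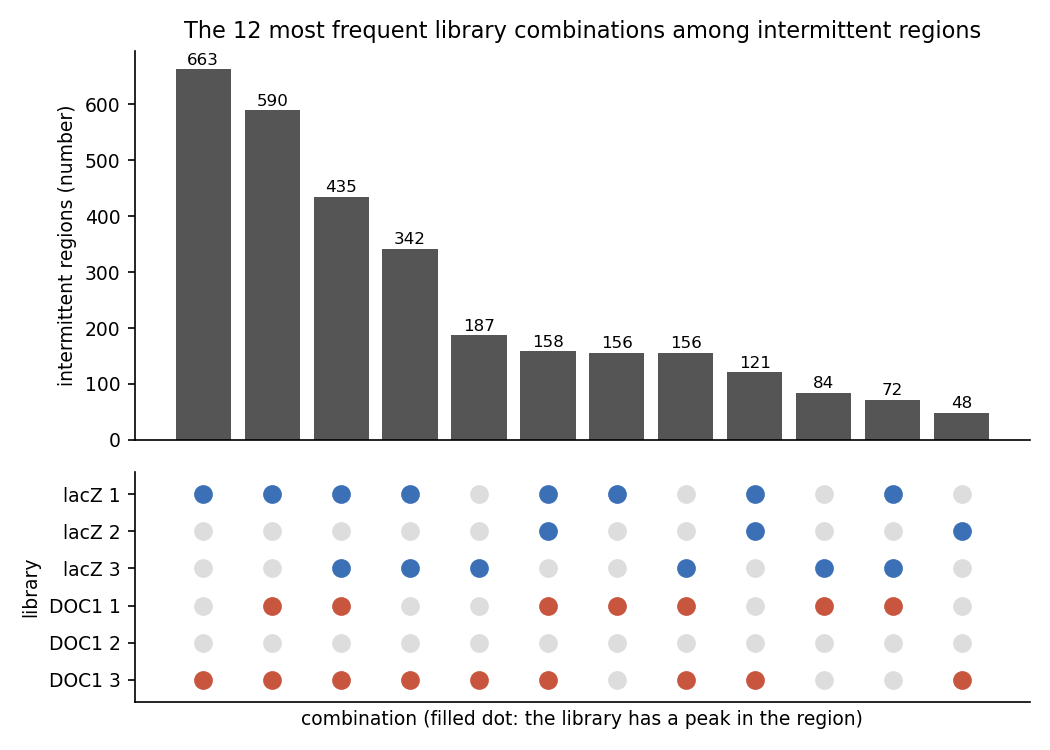
Number of intermittent regions (vertical axis) for the 12 most frequent combinations of libraries, with a filled dot below each bar for every library that has a peak (blue lacZ, red DOC1, grey absent). The leading bar, lacZ 1 with DOC1 3, stands at 663 regions, and DOC1 2 has no filled dot in any of the 12.

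Membership moved with the lists used. Each library was left out in turn, and a region then counted as intermittent where it was in at least 1 but not all libraries left in each condition. The number was 1755 without lacZ 1, 1854 without DOC1 2 and 1856 without DOC1 3, and 2815 without DOC1 1. Without DOC1 2, 1401 of the 3274 regions were in every library left of at least 1 condition and no longer counted. When each list was reduced to its best 2812 peaks by p-value, 1001 regions were intermittent, 665 of them among the 3274. In those shorter lists 1159 of the 3274 held no peak at all and 1436 held peaks of only 1 condition.

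Intermittent regions fell into 4 grades of recurrence. In 1166 regions (35.6%) there was 1 library of each condition, and in 662 (20.2%) there were 2 of each. Another 838 (25.6%) were in 1 lacZ and 2 DOC1 libraries, and 608 (18.6%) in 2 lacZ and 1 DOC1. The lean towards 2 DOC1 libraries turned in lists of equal length, where 171 regions were in 1 lacZ and 2 DOC1 libraries and 260 in 2 lacZ and 1 DOC1. Where a single lacZ library was present it was lacZ 1 in 73.1% of the regions. Where a single DOC1 library was present it was DOC1 3 in 77.8%.

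Regions in 2 libraries of each condition lacked 1 library on either side. The pair missing was lacZ 2 and DOC1 2 in 435 of these 662 regions (65.7%), and lacZ 3 and DOC1 2 in 158 (23.9%). DOC1 2 was missing from 614 (92.7%) and DOC1 3 from 3 (0.453%). Absence means that no peak passed the caller's threshold there, and the lists do not show how many reads such a site held.

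Peaks at intermittent regions stood below the middle of their own lists. Fold enrichment here is the ratio that the authors' peak caller gave between a summit and its local background. It is ranked only within a list. The strongest peak of each region had a median fold of 5.34, 5.74 and 5.76 in lacZ 1, lacZ 2 and lacZ 3, and of 5.81, 5.09 and 5.04 in DOC1 1, DOC1 2 and DOC1 3. Those medians stood at the 40.7th, 38.9th and 37.8th percentile of the lacZ lists and at the 47.4th, 43.3rd and 48.5th of the DOC1 lists. Every lacZ median thus lay lower in its list than every DOC1 median did, though ranks from lists of different length do not compare conditions. Regions of all 6 libraries had medians between the 55.8th percentile, in DOC1 2, and the 93.0th, in DOC1 3. At or above the 75th percentile by fold in every list that held them stood 53 intermittent regions (1.62%). No matching count is given for other regions, and passing in several lists is harder than in 1. Within single lacZ lists, the share of intermittent regions that high was 14.9% (lacZ 1), 7.99% (lacZ 2) and 12.6% (lacZ 3). The DOC1 lists gave 23.8% (DOC1 1), 19.3% (DOC1 2) and 24.0% (DOC1 3). Over all regions of a list the share lay between 24.9%, for DOC1 1, and 25.8%, for lacZ 3.

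**Figure D2:**
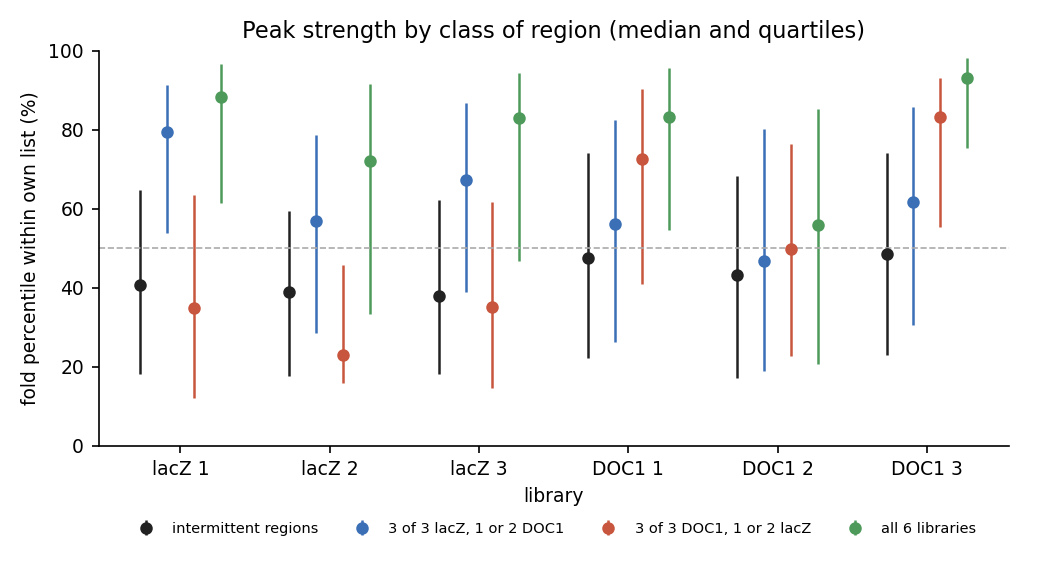
Percentile of fold enrichment within each library's own list (vertical axis, median with quartiles) for intermittent regions, regions of all 3 lacZ libraries with 1 or 2 DOC1, regions of all 3 DOC1 libraries with 1 or 2 lacZ, and regions of all 6. Black points, the intermittent regions, lie between 37.8 and 48.5 and below the green points of all 6 libraries in each list; the dashed line marks the middle of a list.

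Few reads stood behind these peaks, as behind the lists as a whole. The number of reads at a summit was reconstructed from the fold and the p-value of each peak. At intermittent regions its median was 37 in lacZ 1, 23 in lacZ 2 and 21 in lacZ 3. DOC1 1 had 16, DOC1 2 had 15 and DOC1 3 had 36. Over all regions of each list the median was 38, 27 and 22 in the lacZ libraries and 15, 15 and 34 in the DOC1 libraries. Regions of all 6 libraries had 68.5, 39 and 35 in the lacZ libraries and 22, 20 and 57 in the DOC1 libraries. In DOC1 1 and DOC1 2 the lowest number at any listed peak was 8 and 9 reads. The weakest peaks at intermittent regions had a -log10 q between 2.01 and 2.05 in the 6 lists, which is the lowest value listed in each.

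Regions just past the limit of the rule are placed here within their own lists, with no comparison between conditions. Regions in 3 of 3 lacZ and 1 or 2 DOC1 libraries (1135) had median percentiles between 46.8 and 79.5 over the 6 lists, the highest in lacZ 1. Regions in 3 of 3 DOC1 and 1 or 2 lacZ libraries (303) had medians between 23.1, in lacZ 2, and 83.3, in DOC1 3. On the other side, regions of 1 condition in 2 or 3 libraries (3003) had medians between 48.0 and 55.9, and regions of 1 library between 37.4 and 49.8. The 2 best ranked regions in all lacZ libraries and some DOC1 libraries lay on chr9:139839177-139839760, where fold was 13.2, 15.6 and 13.4 in the lacZ lists and 11.2 and 9.25 in DOC1 1 and DOC1 3, and on chr2:101868663-101869595, with 13.0, 14.6 and 13.8 in lacZ and 9.40 and 9.45 in DOC1 1 and DOC1 3. Both lacked DOC1 2 alone. Those in all DOC1 libraries and some lacZ libraries lay on chr4:7973840-7974399, where fold was 10.7 in DOC1 1, 6.68 in DOC1 2 and 11.0 in DOC1 3 and 7.81 and 8.22 in lacZ 1 and lacZ 3, and on chr11:57298156-57298553, with 7.07, 6.94 and 7.28 in the DOC1 lists and 9.77 and 8.92 in lacZ 1 and lacZ 3. Both lacked lacZ 2 alone.

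Where both conditions had a peak, their summits mostly lay close together. Summit positions within overlapping peaks were not used by the rule, but peaks had to overlap to be joined. Overlap limits how far apart summits can lie, and the distance it would give by itself was not worked out. A lacZ summit and a DOC1 summit lay within 100 bp of each other in 2398 of 3274 intermittent regions (73.2%), with a median closest distance of 49 bp. The share rose with the number of libraries, which offers more pairs to choose from. It was 59.5% in regions with 1 library of each condition, where the single pair of summits was a median of 81 bp apart. It reached 91.2% in regions with 2 of each and 97.7% in regions of all 6 libraries. Within regions of 2 and 2 libraries, the strongest summits of libraries of the same condition were a median of 69 bp apart (1324 pairs) and those of different conditions 74 bp (2648 pairs). Pairs within one region share their site and are not independent. Intermittent regions had a median merged length of 529 bp, with quartiles of 430 and 681 bp, and 4.61% of them held more than 1 peak of the same library, against 24.5% of the regions of all 6.

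**Figure D3:**
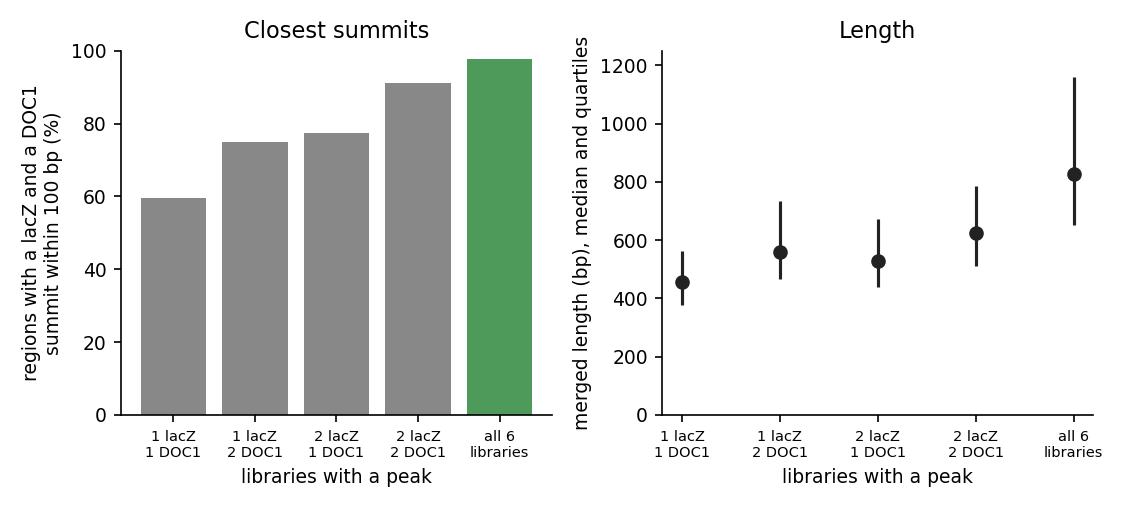
Left, share of regions whose closest lacZ and DOC1 summits lie within 100 bp (vertical axis, percent), and right, merged length (bp, median with quartiles), for the 4 grades of intermittent regions and for regions of all 6 libraries. The share goes from 59.5% to 91.2% over the grades, and the median length from 457.5 to 625.5 bp; a merged length grows with the number of lists merged.

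In all, 3 measures were compared between conditions at intermittent regions. Widths come from the same peak borders that the rule joined, so they are not independent of the choice of regions. Summit positions were not used by the rule but are limited by the overlap, as given above. The distance of a library's summit from the median of the other libraries' summits was 69 bp in lacZ 1, 62 bp in lacZ 2 and 71 bp in lacZ 3, and 70, 69 and 70.5 bp in the DOC1 libraries in the same order. The values of both conditions overlapped, with means of 67.3 ± 4.73 bp and 69.8 ± 0.76 bp (SD, n = 3, two-sided exact permutation p = 0.7). The median width of peaks was 382, 282 and 287 bp in the lacZ libraries and 297, 280 and 418 bp in the DOC1 libraries. Those widths overlapped as well, with means of 317 ± 56.3 bp and 332 ± 75.2 bp (SD, n = 3, exact permutation p = 0.7). Both differences were smaller than the spread between libraries, and both turned sign with 1 library left out (lacZ 1 or lacZ 2 for the summits, DOC1 3 for the width). With 3 libraries against 3 no such test can give a p below 0.1.

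Relative to its own list, peak width at intermittent regions separated the libraries by condition but did not pass the test. The ratio of the median width at intermittent regions to that of the whole list was 0.960 in lacZ 1, 0.887 in lacZ 2 and 0.935 in lacZ 3, against 1.03, 0.986 and 1.06 in DOC1 1, DOC1 2 and DOC1 3. All 3 DOC1 libraries lay above all 3 lacZ libraries. The means were 0.927 ± 0.037 and 1.02 ± 0.035 (SD, n = 3), a difference of 0.0959 with an exact permutation p of 0.1, the smallest possible, and of 0.3 after Benjamini-Hochberg adjustment over the 3 measures. Without DOC1 2 the difference was 0.0128. Leaving this library out also changed the set of intermittent regions, of which 1853 of the 3274 were kept. The part of each in the smaller difference cannot be told apart. Regions seen in no other library made up 21.4%, 5.71% and 14.7% of the lacZ lists and 28.6%, 61.2% and 36.9% of the DOC1 lists. This share was higher in all 3 DOC1 libraries than in any lacZ library. Among the 3 DOC1 libraries, DOC1 2 had the highest share and the lowest ratio. Peaks at such single regions were narrower than at intermittent regions in each list, with medians of 251 to 335 bp against 280 to 420.5 bp. Their part in the ratio was not tested.

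Within each list, peaks at intermittent regions lay farther from the next peak than peaks at constant shared regions did. The comparison was with the 1956 regions seen in both conditions and in all 3 libraries of at least 1 of them, and used the distance from a peak to the next peak of its own list. In lacZ 1, lacZ 2 and lacZ 3 the median distance was 23.5, 90.8 and 46.1 kb at intermittent regions and 13.4, 48.4 and 21.1 kb at constant ones. For the DOC1 libraries in the same order the medians were 19.7, 168 and 11.7 kb at intermittent regions and 11.0, 87.1 and 7.84 kb at constant ones. The distance was larger in 6 of 6 libraries, by 1.49 to 2.19 times. The mean difference on the log10 scale was 0.261 ± 0.055 (SD, n = 6 libraries, two-sided exact sign-flip permutation p = 0.03125, the smallest that 6 libraries can give). The libraries share many of these regions and are not fully independent. Constant regions also held several peaks of the same library more often than intermittent regions (4.61%). The share was 24.5% in regions of all 6, 13.9% in those of 3 lacZ and some DOC1, and 14.5% in those of 3 DOC1 and some lacZ. The part of this in the distance was not tested. With regions joined by summits widened by 100 bp, and distances still taken between whole peaks, the difference was 0.0810. Against all other regions of a library it was 0.0484 (exact sign-flip p = 0.406). There the median at intermittent regions was larger in the lacZ libraries and DOC1 2. It was smaller in DOC1 1 (19.7 against 26.2 kb) and DOC1 3 (11.7 against 14.6 kb). The difference was 0.286 for lacZ and 0.237 for DOC1 libraries (exact permutation p = 0.5 for lacZ against DOC1).

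**Figure D4:**
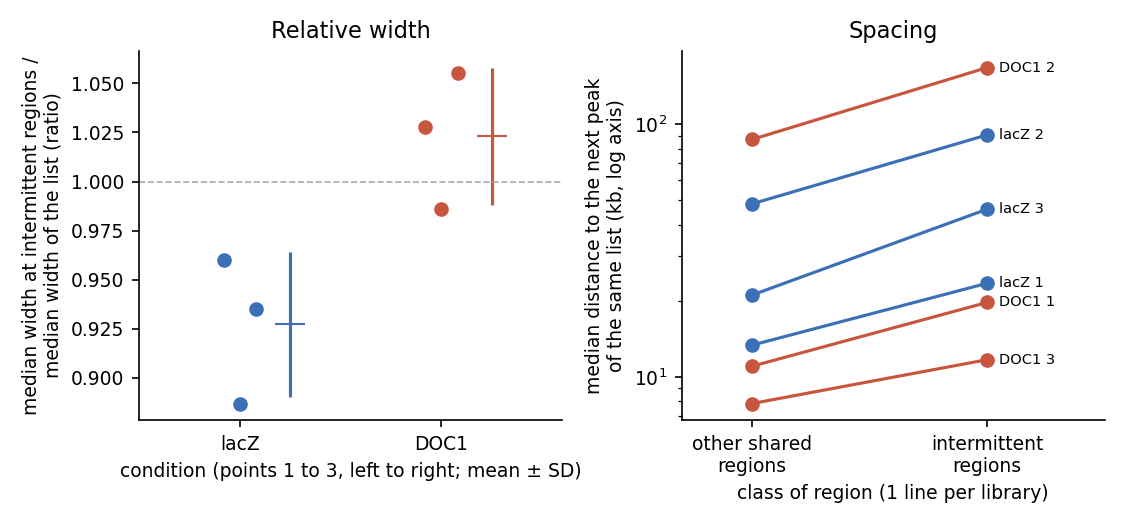
Left, median peak width at intermittent regions over that of the whole list (ratio), 1 point per library with mean and SD (n = 3); the lacZ points lie between 0.887 and 0.960 and the DOC1 points between 0.986 and 1.06. Right, median distance to the next peak of the same list (kb, log axis) at constant shared regions and at intermittent regions, 1 line per library, rising in all 6.

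A library without a peak in an intermittent region seldom had one next to it. Over the 6 libraries there were 10326 absences, and in 572 of them (5.54%) the absent library had a peak within 1 kb of the region. The share was 9.14% for lacZ 1, 3.70% for lacZ 2 and 6.52% for lacZ 3, and 11.5% for DOC1 1, 2.19% for DOC1 2 and 12.4% for DOC1 3. It was highest in the libraries with the longest lists. At all other regions that a library lacked, the same share was lower in each library, between 1.82% in DOC1 2 and 10.3% in DOC1 3.

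By distance to the nearest other merged region, intermittent regions lay between regions of all 6 libraries and regions of 1 library. Their median was 6.73 kb, against 4.38 kb for regions of all 6, 14.5 kb for regions of 1 library and 10.7 kb for all regions. It was close to the 6.50 kb of regions in 3 lacZ and some DOC1 libraries. Regions in 3 DOC1 and some lacZ libraries had a median of 5.92 kb. Within 10 kb of a region of all 6 libraries lay 178 intermittent regions (5.44%), against 3.72% of all regions. Another intermittent region lay within 10 kb of 665 (20.3%), against 16.5% of all regions. Both shares were higher at constant shared regions. The first was 7.05% in regions of 3 lacZ and some DOC1 libraries, 5.61% in those of 3 DOC1 and some lacZ, and 7.72% in those of all 6. The second was 20.6%, 21.5% and 29.3% in the same order. No other region lay within 100 kb of 278 (8.49%), against 13.6% of all regions. These shares are descriptions and were not tested.

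Intermittent regions were spread over the chromosomes much as all regions were. Chromosome 1 held 343 (10.5%, against 10.0% of all regions), chromosome 2 held 289 (8.83% against 8.69%) and chromosome 17 held 261 (7.97% against 7.15%). The share of a chromosome's regions that were intermittent went from 7.98% on chromosome 13 to 22.7% on chromosome 21, which held 34. Chromosome 13 thus gave 39 intermittent regions of 489, or 1.19% of them against 2.60% of all regions. On chromosome 20 the share was 20.7% (157 of 759), on chromosome 19 it was 19.6% (176 of 898) and on chromosome X 11.3% (24 of 213). Chromosomes also differ in how many regions were seen in both conditions. Of these shared regions, 5.47% lay on chromosome 20, 6.02% on chromosome 19 and 1.28% on chromosome 13. The same chromosomes held 4.80%, 5.38% and 1.19% of the intermittent regions. Chromosome 21 went the other way, with 0.841% and 1.04%.

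**Figure D5:**
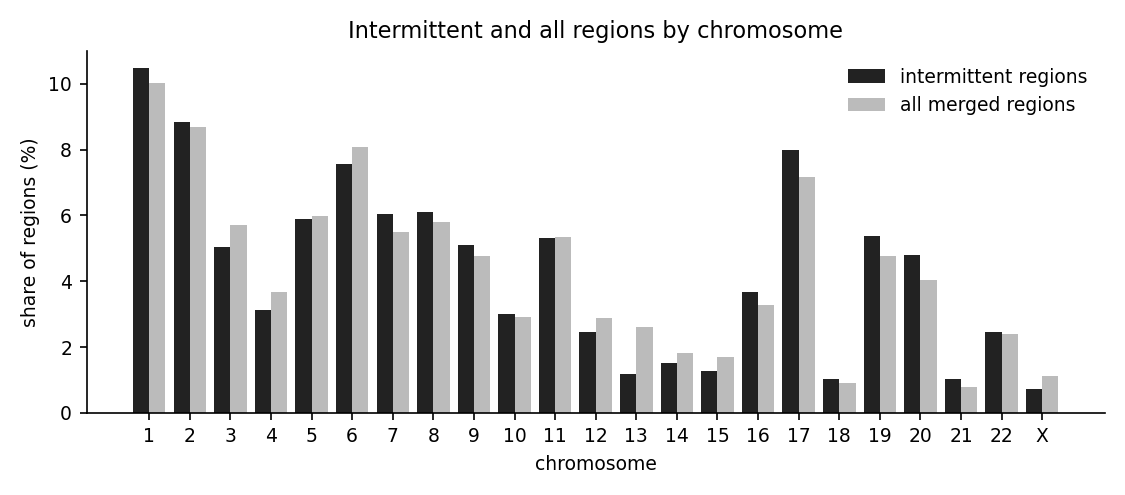
Share of the 3274 intermittent regions and of all 18808 merged regions on each chromosome (vertical axis, percent; chromosome Y not drawn). The paired bars differ by under 1 percentage point except on chromosome 13, at 1.19% and 2.60%.

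Intermittent regions occurred in 2440 segments of 100 kb. Of the 3274 regions, 1849 were the single intermittent region of their segment, and 172 segments held 3 or more. The highest number, 6, was reached in 4 segments. On chr10:74000001-74100000 6 of 19 regions were intermittent and none was in all 6 libraries. All 6 held lacZ 1 and no other lacZ library, with folds between 3.24 and 7.42. On chr20:48900001-49000000 6 of 18 regions were intermittent beside 2 of all 6 libraries. Each of these 6 held lacZ 1 and DOC1 3, with folds between 2.79 and 6.63. On chr8:134000001-134100000 6 of 18 regions were intermittent beside 1 of all 6 libraries, with folds between 2.87 and 8.76. The other such segment, on chr2:102600001-102700000, had 6 intermittent regions of 12.

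The intermittent regions that ranked best in 2 libraries of each condition mostly had summits close together. Of the 12 with the best worst percentile of fold, 11 lacked DOC1 2, 11 lacked lacZ 2, and 10 were in lacZ 1, lacZ 3, DOC1 1 and DOC1 3. In 10 of the 12 all summits lay within 100 bp. The best ranked, on chr10:5626692-5627480, was 789 bp long. Its fold was 10.5 in lacZ 1, 10.1 in lacZ 3, 10.4 in DOC1 1 and 6.89 in DOC1 3, with 64, 30, 19 and 35 reads at the summit. These peaks stood at the 87.0th percentile of their list or higher, and their summits spanned 40 bp.

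The next, on chr12:56367320-56368001, was the only one of the 12 with a lacZ 2 peak. Its fold was 7.93 in lacZ 1, 10.7 in lacZ 2, 10.6 in DOC1 1 and 9.39 in DOC1 3. A site on chr5:52315110-52315685 came after it, where fold was 8.47, 9.57, 7.67 and 9.17 in lacZ 1, lacZ 3, DOC1 1 and DOC1 3. Its 4 summits spanned 29 bp, the closest of the 12. A site on chrX:120331081-120331486 stood alone, with the nearest other region 462 kb away and folds of 8.73, 10.2, 7.40 and 8.71 in the same libraries. Likewise a site on chr3:126701087-126701776 had no other region within 509 kb, and its folds in these libraries were 7.38, 8.25, 7.71 and 6.58.

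The other 7 had lower ranks, and their worst percentile went from 79.7 down to 74.6. They lay on chr17:76133454-76133858, chr3:39195213-39195578, chr1:33564702-33565880, chr3:124844457-124845162, chr3:149015791-149016691, chr17:2715025-2715784 and chr10:125754428-125755515. The site on chromosome 1 had a fold of 13.3 in DOC1 1 and of 7.45, 7.78 and 7.53 in lacZ 1, lacZ 3 and DOC1 3. Its summits spanned 409 bp. The last site, on chromosome 10, was the only one of the 12 with DOC1 2, at a fold of 5.96 and 13 reads, and it lacked DOC1 1. In lacZ 1 it had a fold of 11.3 and 69 reads.

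Strong peaks were also found where a single library of a condition was present. With 1 library of each condition, the best ranked site lay on chr19:11484887-11485245. It had folds of 10.4 in lacZ 1 and 8.04 in DOC1 3, with 49 and 34 reads, and both summits were 5 bp apart. It stood at the 94.3rd percentile or higher in both lists and yet had no peak in the other 4. The next were on chr4:6675494-6675932, with folds of 9.70 and 7.83, and chr10:81923376-81924102, with 8.13 and 6.98, both in lacZ 1 and DOC1 3 as well.

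With 1 lacZ and 2 DOC1 libraries, the best ranked site lay on chr19:40909203-40909517, with folds of 8.58, 8.31 and 7.64 in lacZ 1, DOC1 1 and DOC1 3 and summits within 6 bp. Sites on chr1:27816678-27817645 and chr5:138940003-138940861 followed, in the same 3 libraries. The summits of the latter spanned 550 bp. With 2 lacZ libraries and 1 DOC1, the best ranked site was on chr19:3343864-3344313, where lacZ 1, lacZ 3 and DOC1 3 had folds of 9.38, 9.82 and 9.71. Next came sites on chr1:27131521-27131883, in lacZ 1, lacZ 2 and DOC1 1, and on chr19:8454401-8455154, with summits within 5 bp in lacZ 1, lacZ 3 and DOC1 3.

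For regions in 2 libraries of each condition, 3 are given whose mean percentile was nearest 44.2, the median over all 3274 intermittent regions. All 3 were in lacZ 1, lacZ 2, DOC1 1 and DOC1 3, a combination held by 158 of the 662 such regions. Their worst percentiles, from 1.03 to 12.7, lay below the median of 19.7 over all intermittent regions, so they do not stand for the grade. A site on chr7:4673583-4674160 had folds of 3.62 in lacZ 1, 5.12 in lacZ 2, 6.23 in DOC1 1 and 7.57 in DOC1 3. These stood at the 4.43rd, 22.0th, 58.4th and 91.9th percentile. The lacZ 1 and lacZ 2 peaks had 36 and 29 reads at the summit, near the medians of 38 and 27 over all regions of those lists. A site on chr19:4867814-4868732 had folds of 4.53 and 3.08 in lacZ 1 and lacZ 2 and of 7.07 and 6.30 in DOC1 1 and DOC1 3. It lay 0.978 kb from a region of all 6 libraries. A site on chr8:142085851-142086588 had 4.88, 4.63, 5.68 and 8.40 in the same libraries. All 3 had their highest percentile in DOC1 3, and folds are not compared between lists.

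The longest intermittent regions were broad in DOC1 3 above all. A region of 2279 bp on chr5:98104458-98106736 held peaks of 494 bp in lacZ 1, 237 bp in lacZ 2, 399 bp in DOC1 1 and 1558 bp in DOC1 3. Its summits spanned 1529 bp, so the peaks joined there did not share one summit. Regions of 1903 bp on chr17:76338235-76340137 and 1810 bp on chr17:80290610-80292419 had DOC1 3 peaks over their whole length. Their lacZ 1 peaks were 1357 and 1280 bp wide, with 70 and 51 reads at folds of only 4.29 and 4.76.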

How the data were processed

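CHD4 ChIP-seq libraries (3 lacZ, 3 DOC1) were read through the authors' deposited peak lists, 1 per library and not pooled. Per the submitters' processing notes, Trimmomatic 0.33, BWA 0.7.12-r1039, SAMtools 1.2 and MACS2 2.1.1.20160309 were used on hg19. Options, read filters and the control: not given in the sources used here. Each deposited fold is a ratio of summit to local background. The deposited -log10 p, -log10 q and score are each peak's own; the score was not used. Depth is not stated; reads at each summit were solved from fold and p as whole reads times 1 factor per library, which matched the listed -log10 p within 0.01 for 100% of the peaks of each list. Reads are not known to be independent molecules.

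Peaks overlapping by 1 bp or more were merged. Conditions were compared over libraries with two-sided exact permutation tests (20 assignments). Spacing was the log10 of the median distance plus 1 bp, with exact sign flips over 6 libraries. Regions named are the best by their worst fold percentile in each grade, 3 near the median, the 3 longest, the segments of 100 kb with most members and the best just outside the rule. Region merging and tests were checked on simulated data. Alternatives were a stricter q-value, lists of equal length, other joining rules, summits and leaving out each library. Members, lists and tests were chosen with earlier results of these data known. Sequence, genes and promoters were not analysed here, since no hg19 reference was used. Software: scipy 1.17.1, pandas 2.3.3, numpy 2.4.6 and matplotlib 3.10.9 in Python 3.11.15.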

Additional observations from a re-analysis of the deposited data

How the results depend on the processing

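The 3274 intermittent regions became 1001 in lists of equal length, a setting that removes peaks, and 1755 to 2815 with 1 library left out. They stayed between 3157 and 3323 with a -log10 q of at least 3, with 100 bp of overlap, across gaps of 500 bp and with summits. The spacing difference of 0.261 was 0.0484 against all other regions of a library (exact sign-flip p = 0.406, the cause was not tested) and 0.191 to 0.297 with 1 library left out, where 5 libraries cannot give an exact p below 0.0625. The difference in width ranged from -29.8 bp, without DOC1 3, to 50.2 bp with 1 library left out. That in summit offset ranged from -3.08 bp without lacZ 1 to 10.8 bp without DOC1 1, with -1 bp without lacZ 2 (causes not tested). The difference in relative width kept its sign, between 0.0128 and 0.131. With same-numbered libraries paired (replicate block), the differences of 14.7 bp in width, 0.0959 in relative width and 2.50 bp in offset had exact sign-flip p-values of 1, 0.25 and 0.5, where 3 pairs cannot go below 0.25. The numbers are not stated to mark shared cultures, correlations of their deviations were 0.01, 0.03 and -0.02, and 2 of 6 libraries correlated best with their own number. Of the 27 named intermittent regions, 26 remained so with summits, 24 in lists of equal length and 7 without DOC1 2. Most were named for high ranks of fold, so they do not stand for all 3274. Of those, 665 remained in lists of equal length and 1853 without DOC1 2. Promoter share, GC content and motifs were not run, for want of an hg19 reference here. Summits of 15 or 16 reads in DOC1 1 and DOC1 2 limit what can be seen there.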

Other observations

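Local background, the level that the peak caller set around each summit, was read from the fold and the reconstructed reads and divided by the median of its list. A background of at least 1.5 times that median was found at 39.7%, 26.8% and 28.8% of the intermittent regions in lacZ 1, lacZ 2 and lacZ 3. In the DOC1 lists this held for 29.8% of them in DOC1 1, 36.1% in DOC1 2 and 23.1% in DOC1 3. Over the whole lists it held for 32.5%, 26.9% and 23.8% of the regions of lacZ 1, lacZ 2 and lacZ 3, and for 23.2% in DOC1 1, 29.1% in DOC1 2 and 17.9% in DOC1 3, so that lacZ 2 showed no excess at intermittent regions. At regions seen in 1 library alone the share was between 11.0%, in lacZ 3, and 20.01%, in DOC1 2, and lower than at intermittent regions in each of the 6 libraries. At regions of all 6 libraries it was between 26.6%, in DOC1 3, and 55.2%, in DOC1 2, and higher than at intermittent regions in each. The share did not rise steadily with recurrence. Regions of all 3 DOC1 and some lacZ libraries were below intermittent ones in DOC1 1 (21.8%) and DOC1 3 (16.8%), and regions of all 3 lacZ and some DOC1 libraries in lacZ 1 (33.6%) and lacZ 3 (24.3%). The limit was chosen after the data were seen, and background takes few separate values, many of them at the limit itself. With a background above 1.5 times the median in place of at least 1.5 times, the share at intermittent regions fell to 27.2% for lacZ 1, to 15.6% for lacZ 2, to 16.5% for lacZ 3 and to 27.7% for DOC1 2. It moved little for DOC1 1 (29.8%) and for DOC1 3 (23.1%). The order of regions of 1 library, intermittent regions and regions of all 6 was the same in each of the 6 libraries under both limits. The part of background in recurrence was not tested.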
